A study of Caenorhabditis elegans with 12 samples.

Results

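The loci described here are the abundant type I piRNA loci of C. elegans that carry neither an oogenic nor a spermatogenic label in the deposited tables. They were selected on the mean normalised count of both depletion control libraries, which had to be 10 or more. Of 13458 type I loci, 1833 met this rule, which is 13.6% of them. The other type I loci were 6280 loci without a label below that mean, 1698 labelled Oogenic and 3647 with a spermatogenic label. The class field of all 1833 loci read none, and the tables do not define how the labels were given.

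Small RNAs were sequenced from whole adult animals grown at 20 °C, in 10 libraries treated with the polyphosphatase PIR-1 and 2 CIP-TAP libraries, which enrich capped small RNAs (csRNAs). In the depletion experiment, all animals carried the wrdSi51 insertion on chromosome II, which expresses the plant F-box protein TIR1 from the mex-5 promoter, a germline promoter, with a tbb-2 3′UTR. The control animals had no degron (2 PIR-1 libraries and 1 CIP-TAP library), and the depleted animals carried GFP::tev::aid::attf-6 beside the insertion (2 PIR-1 libraries and 1 CIP-TAP library). Both strains were moved at the L4 stage to plates with 4 mM auxin, which makes TIR1 mark degron-tagged proteins for destruction. In the deletion experiment, without auxin, all animals carried attf-6::3xflag. Its 3 groups of 2 PIR-1 libraries were this control strain, ΔPeak1, which lacks positions 13709294 to 13709476 of chromosome IV, and ΔPeak2, which lacks positions 14387943 to 14388536. Replicates are numbered in the labels but not tied to separate cultures. The paper describes its piRNA levels with and without depletion as from 2 biological replicates. For the deletion libraries the spread between replicates may be partly technical. Summed counts ran from 6352629 to 31931330 reads in a library. ATTF-6 protein itself is not measured in small RNA libraries, so its loss was taken from the labels.

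piRNAs are the small RNAs that guide the Piwi protein PRG-1 in the worm germ line, where they silence transposons and other foreign sequences. A type I piRNA gene is a short transcription unit of its own, mostly within a pair of large clusters on chromosome IV. RNA polymerase II makes a short capped precursor that starts just upstream of the mature piRNA, which is then trimmed at both ends to a 21-nt RNA that begins with U. ATTF-6 is an AT-hook protein, a type of protein that binds the minor groove of AT-rich DNA. In worms, target recognition by a piRNA relies on pairing of a seed near its 5′ end, with further pairing along the molecule.

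Each of the 1833 loci is 21 nt long in the WBcel235 annotation. Sequences are shown for 4 of them, which were also assayed by RT-qPCR. They were assembled from the oligonucleotides of that assay, with 16 bases from the sense primer and 8 bases from the reverse transcription primer, which overlapped by 3 bases. The capitals mark the seed, bases 2 to 8, and T stands for U. All 4 begin with T and no seed is shared between them. The first lies between protein-coding genes at chrIV:16697299-16697319 on the plus strand, the next at chrIV:15545438-15545458 on the minus strand, the next at chrIV:16898307-16898327 and the last at chrIV:14202798-14202818, both on the plus strand and also between genes.
21ur-1496: tGGATGACtaattttgactaa
21ur-3442: tACTAGAGtgttgagattgtg
21ur-4606: tCCTACTAtcggtctatttcg
21ur-5665: tTTGTACGgtgcattatgtat

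The guide RNAs used to make both deletions define the alleles of the deletion experiment, so their 20-base spacers are shown as well, with no part in capitals. A pair of guides was used for each deletion.
ΔPeak1 guide 1: uaugaguugcugcuuuuuuu
ΔPeak1 guide 2: gaacuuuuuaucugaugaau
ΔPeak2 guide 1: acgcccacauugagacccca
ΔPeak2 guide 2: acguccggauuuggaacaag

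The loci lay almost wholly in the piRNA clusters of chromosome IV. With cluster I taken as the window from 4000000 to 8000000 and cluster II as that from 13000000 to 18000000, 269 of them (14.7%) were in cluster I and 1561 (85.2%) in cluster II. The Wilson 95% interval of the share in cluster II was 83.5% to 86.7%, and the share over all type I loci was 78.2%. Only 21ur-5749 and 21ur-8249 lay elsewhere on chromosome IV, and only 21ur-13306 on another chromosome, at chrV:9940564-9940584 on the minus strand. Of the unlabelled loci below the mean of 10, 280 were on other chromosomes. Both strands held similar numbers, with 921 loci on the plus strand and 912 on the minus strand. By annotation, 1167 loci were between protein-coding genes, 622 (33.9%) within introns and 44 (2.40%) over an exon. Over all type I loci, 33.2% were intronic and 4.90% touched an exon.

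Neighbouring annotations limit what a single locus can show. The 5′ ends of 510 of the 1833 loci lay within 2 nt of the 5′ end of another type I locus on the same strand. The authors counted reads that start up to 2 nt into a locus, so such loci can share reads. Counts with fractions occurred at 505 of these 510 loci and at 6 of the other 1323. Values of such neighbours, among them 21ur-5444 and 21ur-4732, cannot be told apart with certainty. Without the 510 loci, an alternative chosen after seeing the data, the log2 ratio of the summed count was -5.11 after depletion (-5.13 with them), -0.10 in ΔPeak1 (-0.11) and -0.20 in ΔPeak2 (-0.22).

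Levels spanned a wide range, and since they chose the loci they are given as a description. The mean normalised count (the count divided by the mapped reads of the library, times a fixed factor) over the depletion controls ran from just over 10 to 3930, with a median of 35.5. At 100 or more were 419 loci, and 18 were at 1000 or more. The 10 most abundant loci held 11.3% of the summed level and the 100 most abundant held 41.9%. The most abundant 149 loci were needed to reach 50% of the sum. 

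The 5 most abundant loci were all in cluster II. 21ur-3730 (WBGene00048672, chrIV:14301789-14301809, plus strand, intronic) stood at 4046 and 3814 in the depletion controls, against 74.4 and 81.6 after depletion. 21ur-3375, which shares its 5′ end with 21ur-243, stood at 2529 and 2552 against 74.6 and 57.9. 21ur-2446 (WBGene00049424), between genes, stood at 1913 and 2431 against 39.9 and 42.4. In all 3 the libraries of each group were close together and the groups did not overlap. 21ur-4572 stood at 2069 and 2215 against 79.1 and 89.1. 21ur-1762 stood at 1794 and 1996 against 21.3 and 23.7, the lowest remaining values of these 5.

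At the threshold of the rule, the 3 loci just inside were 21ur-8736 with 10.6 and 9.44, 21ur-355 with 7.89 and 12.1 and 21ur-4164 with 7.0 and 13.0. The 3 unlabelled loci just outside were 21ur-10335 with 6.87 and 13.0, 21ur-2884 with 10.4 and 9.44 and 21ur-1820 with 7.51 and 12.4. At each of these 6 loci the control libraries differed by more than the means did across the threshold.

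The first comparison asks what became of these piRNAs when ATTF-6 was depleted. Their summed normalised count was 164490 and 196264 with ATTF-6 present, against 4883 and 5400 after depletion. This was 180377 ± 22468 (SD, n = 2) against 5142 ± 365, which is 35.1-fold lower and leaves 2.85%. The rule used the control libraries of this contrast, so no test was made. At 1833 of 1833 loci both depleted libraries were below both control libraries, whereas 63.4% of the 33715 features of all kinds at a mean normalised count of 0.5 or more over these 4 libraries were lower without overlap. The count follows in part from choosing loci that were high in the controls, and nothing is read from it.

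**Figure D1:**
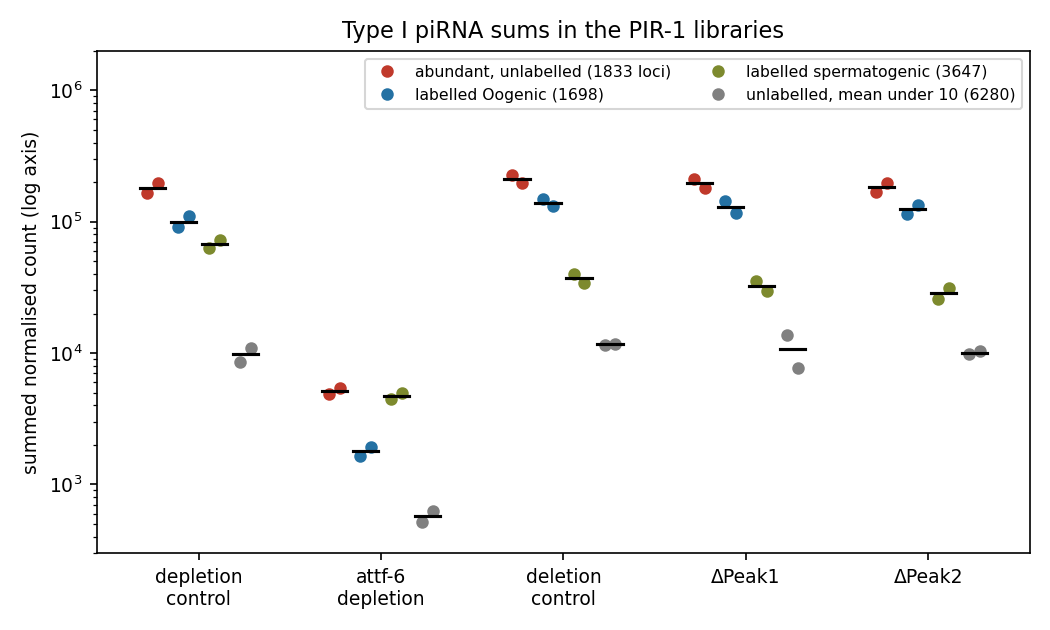
Summed normalised count (log axis) of the 1833 abundant unlabelled loci and of the 3 other groups of type I loci in the 10 PIR-1 libraries, with a point for each library and a bar for the group mean. The 1833 loci held 164490 and 196264 in the depletion controls, 4883 and 5400 after attf-6 depletion, and between 169535 and 226813 in the 6 libraries of the deletion experiment.

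Beside them, the loci labelled Oogenic kept 1.79% of their control sum (55.9-fold lower), the spermatogenic loci 6.97% (14.3-fold lower) and the scarce unlabelled loci 5.86% (17.1-fold lower). The depleted libraries held 2.71% and 2.99% of the control mean of the abundant unlabelled loci, 1.65% and 1.93% of the oogenic loci and 6.66% and 7.28% of the spermatogenic loci. In each depleted library the abundant unlabelled loci lay between both labelled groups. The rule split the unlabelled loci by their level in these same controls and set no limit on the labelled loci. This enters the remaining shares, so nothing is read from the order of the groups. As a share of the type I sum, the abundant unlabelled loci made up 50.4% ± 0.0053 (SD, n = 2) in the controls and 42.1% ± 0.249 after depletion. The spermatogenic loci went from 18.9% to 38.6%. No test was made of these differences. Within the 1833 loci, those of cluster I were 33.4-fold lower and those of cluster II 35.3-fold lower.

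Depletion left little at most single loci. The median remaining share was 2.67% of the control mean, with quartiles at 1.62% and 4.29%. In both depleted libraries 525 loci (28.6%) held 3 counts or fewer, and with these loci set to 3 counts the median was 3.56%. At 45 loci no read was counted in either depleted library. More than 10% remained at 69 loci and more than 25% at 3.

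The 5 loci with the largest remaining share were all below the median level. The piRNA of chromosome V, 21ur-13306, held 11.7 and 10.6 before and 5.78 and 4.60 after depletion, which leaves 46.6%. 21ur-11522, the last of these loci along cluster I, held 27.1 and 39.6 against 6.61 and 14.5. The depleted libraries of both loci were lower without overlap, by 2.15-fold and 3.15-fold. 21ur-7169, also in cluster I, kept 25.1%, 21ur-6011, which shares its 5′ end with 21ur-11278, kept 22.8%, and 21ur-3237 kept 21.2%. The pair of loci on chromosome IV outside both clusters also kept more than the median, with 7.52% at 21ur-5749 and 10.9% at 21ur-8249.

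Of the loci without a read after depletion, 21ur-6392 was the most abundant in the controls, with 51.0 and 42.3. Against 3 counts per depleted library this was at least 69.3-fold lower. 21ur-1156 held 24.7 and 35.7 (at least 44.9-fold lower) and 21ur-6301 held 13.4 and 27.0 (at least 29.97-fold lower). These 3 loci are in cluster I, cluster I and cluster II. 21ur-886, with 19.3 and 20.0, and 21ur-8556, with 17.9 and 17.5, were at least 29.2-fold and 26.4-fold lower.

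The summed remaining share was compared across levels. In 5 classes of 366 or 367 loci by control level, the summed remaining share was 4.08% in the lowest class and 2.62% in the highest. The medians over single loci differed less and in no steady order, at 2.75%, 2.98%, 2.85%, 2.60% and 2.43%. Because the control level enters both measures, the loci were also ordered by their level in the deletion controls, which the rule did not use. The summed share then went from 4.95% in the lowest class through 3.85%, 3.07% and 3.02% to 2.60% in the highest. In this order the medians over single loci were 3.93%, 2.71%, 2.60%, 2.62% and 2.41%, highest in the lowest class. These are descriptions, and 250 of the 367 loci in the lowest class by control level were at 3 counts or fewer after depletion.

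**Figure D2:**
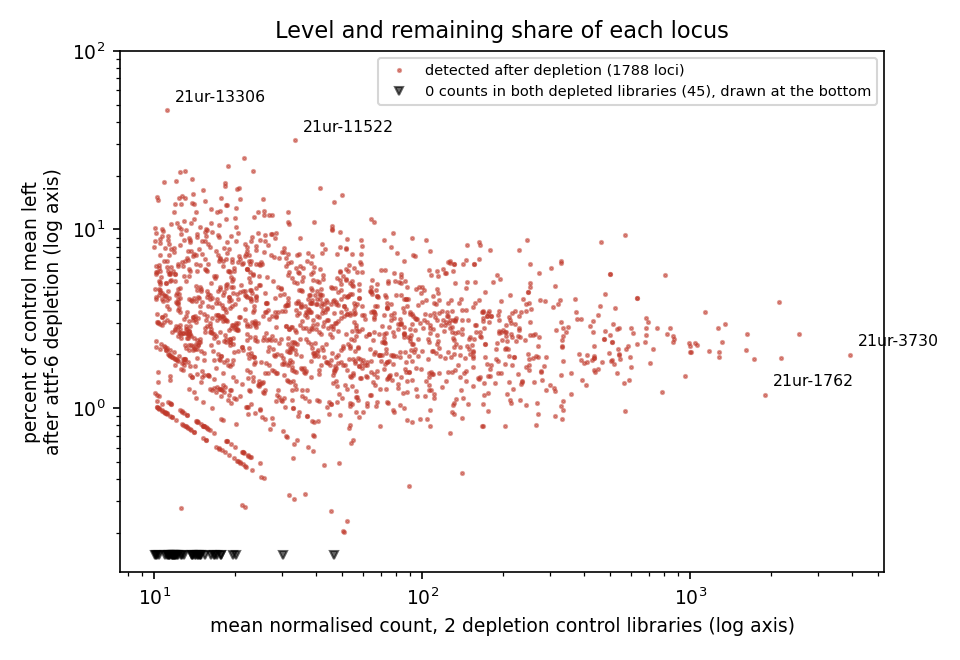
Mean normalised count of each of the 1833 loci in the depletion controls (log axis) against the percent of it left after attf-6 depletion (log axis), with 45 loci without a read drawn at the bottom. The quartiles of the remaining share were 1.62% and 4.29%, and 21ur-13306 kept 46.6%.

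The 4 piRNAs with printed sequences were all in the highest class by control level. 21ur-1496 held 147 and 232 in the controls, against 8.67 and 12.3 once ATTF-6 was depleted, so 5.54% remained. 21ur-3442 held 1115 and 1239 against 24.4 and 24.4, with 2.07% left. 21ur-4606 held 119 and 143 against 2.07 and 3.15, with 1.99% left. 21ur-5665 held 281 and 534 against 5.58 and 5.33, with 1.34% left, and its control libraries were further apart than those of the other 3.

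miRNA markers of the germ line were lower after the depletion as well. The summed level of miR-35-3p to miR-41-3p, miRNAs of the germ line and early embryo, was 96713 to 99948 in control animals, against 10904 to 16155 in depleted ones, and 7 of 7 were detected. Each was lower in both depleted libraries. Of 5 somatic markers chosen, 2 were matched to an entry, let-7-5p and miR-58a-3p. No match was found for mir-1, mir-124 and lin-4, which does not show that they were absent. Together the matched markers ranged over 798788 to 834083 in control animals and 862337 to 1046340 in depleted ones. Most of this sum was miR-58a-3p, so it is not a panel of somatic tissues. On its own, let-7-5p stood at 14749 and 12172 in control animals and at 16984 and 19892 in depleted ones. The part of these shifts in the lower piRNA values was not tested, and in bulk animals fewer germ cells and less RNA per germ cell cannot be told apart.

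The CIP-TAP libraries ask whether the capped precursors fell with the mature piRNAs. The authors assigned a read to the csRNA entry of a locus when it started 2 nt upstream of the annotated 5′ end. At the 1833 loci such reads made up 1256062 control counts, against 4211 with ATTF-6 depleted. As normalised counts this was 249193 against 1107, which is 225-fold lower. On the log2 scale the ratio was -7.81, and it was -7.32 per summed counts and -8.57 per miRNA reads. As a share of all counts listed for the library, the csRNA counts made up 10.6% (Wilson 95% interval 10.60% to 10.63%) and 0.0663% (0.0643% to 0.0683%). These intervals cover counting error only, and with 1 library in each group there is no replicate check and no test.

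Of the 1833 loci, 1489 (81.2%) had more than 3 csRNA counts in the control CIP-TAP library. The share was 69.6% for the oogenic, 44.9% for the spermatogenic and 33.4% for the scarce unlabelled loci. The 1833 loci were chosen for a high mature level in control animals, whereas the labelled loci had no lower limit. These shares follow in part from that rule, so nothing is read from their differences. After depletion, csRNA was 499-fold lower at the oogenic loci, 26.8-fold lower at the spermatogenic loci and 37.9-fold lower at the scarce loci. The order of the 4 groups by fold of csRNA was thus oogenic, abundant unlabelled, scarce and spermatogenic. Within the abundant unlabelled loci, csRNA was 84.2-fold lower in cluster I and 254-fold lower in cluster II. Their share of all type I csRNA counts was 51.9%, against 27.9% after depletion.

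The 5 loci with the highest csRNA were also all in cluster II, and none was among the 5 highest mature piRNAs. 21ur-1222 (WBGene00050603, chrIV:15411485-15411505, plus strand, between genes) had a csRNA value of 9551, from 48140 counts, and 9.73, from 37 counts, after depletion. 21ur-5504, whose 5′ end lies beside those of 21ur-7602, 21ur-8276 and 21ur-11000, went from 8333 to 3.68. 21ur-4136, which shares its 5′ end with 21ur-14166, went from 3647 to 4.73. 21ur-538 went from 3438 to 4.21 and 21ur-4358 from 2804 to 7.89. The counting intervals of both libraries were far apart at all 5, for 21ur-4358 at 2758 to 2851 and 5.32 to 11.3. Their mature piRNAs stood at 243, 234, 998, 583 and 151 in the mean of the PIR-1 controls.

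csRNA and mature level were compared locus by locus. Across the 1833 loci, Spearman's rho between the control CIP-TAP csRNA and the mean mature level was 0.39, and it was 0.61 across the oogenic and 0.57 across the spermatogenic loci, which were not limited to a mean of 10 or more. Loci share their libraries and are not independent replicates. The median csRNA was 4.76 in the lowest class of mature level and 108 in the highest, or 4.56 and 109 when classes were formed in the deletion controls. No csRNA was counted in the control library at 304 loci (16.6%), whose median mature level was 24.1 against 38.2 at the loci with csRNA. 21ur-1496, with a mature mean of 190, was one of them, whereas 21ur-3442 had a csRNA value of 1048, 21ur-5665 one of 136 and 21ur-4606 one of 25.4. At 0 counts, up to 3 counts or a value of 0.595 could have been missed in that library. Some loci at 0 start within 2 nt of a locus whose entry holds the csRNA, such as 21ur-4732 beside 21ur-5444 at 689. A value of 0 there need not mean that no precursor was made, and such loci also enter the rho of 0.39. 

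**Figure D3:**
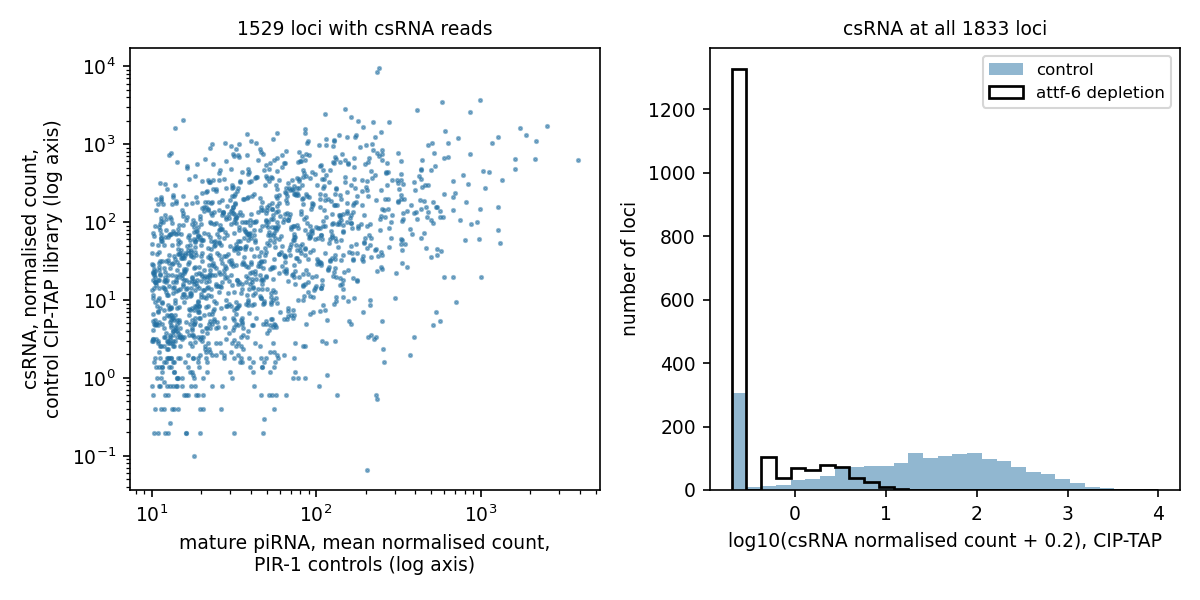
Left, mean mature level in the PIR-1 controls against csRNA in the control CIP-TAP library (log axes) for the 1529 loci with a csRNA read. Right, number of the 1833 loci by log10 of the csRNA value plus 0.2 in the control (filled) and depleted (outline) CIP-TAP library, where 304 and 1325 loci were at 0.

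The PIR-1 libraries also held csRNA entries for these loci, at much lower values. They summed to 518 ± 26.6 (SD, n = 2), against 97.9 ± 0.396 after depletion. The mature piRNA sum of the same controls was 348 times larger.

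The deletion controls show these piRNAs in a second strain that the rule did not use. The sum was 226813 and 197656, which is 212235 ± 20617 (SD, n = 2) and 1.18 times that of the depletion controls. The libraries of both strains did not overlap, by a narrow gap. The exact two-sided permutation p of 0.333 is the smallest that 2 against 2 libraries can give. The loci made up 52.9% ± 0.178 of the type I sum against 50.4% ± 0.0053 in the depletion controls. This was higher by 2.52 percentage points, also with an exact permutation p of 0.333. The rule chose the loci on the depletion controls, a side of both comparisons, so nothing is read from either p. Strain, auxin and experiment cannot be told apart in these comparisons. The oogenic loci made up 34.9% here against 28.0% in the depletion controls, and the spermatogenic loci 9.28% against 18.9%.

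The cluster sums moved in opposite directions between the control strains. The cluster II loci went from 168232 ± 20952 to 202320 ± 19121 (SD, n = 2), and the cluster I loci from 12089 ± 1511 to 9881 ± 1491. In cluster I the library values were 11020 and 13157 against 10935 and 8827, so the highest deletion control lay just under the lowest depletion control. The log2 ratios were -0.29 in cluster I and 0.27 in cluster II. They were 0.23 and 0.49 for the oogenic, -1.01 and -0.84 for the spermatogenic and -0.33 and 0.37 for the scarce loci. The rule chose the loci on the depletion controls, a side of this comparison, so nothing is read from the difference between clusters.

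Most of the 1833 loci stayed abundant. In the deletion controls 1519 of them (82.9%) again had a mean of 10 or more, and 6 were under 1. By class of depletion control level, 47.1% of the lowest class and 100% of the highest were at 10 or more. A further 219 unlabelled loci reached 10 in the deletion controls without having done so in the depletion controls. Spearman's rho between the strains was 0.85 across these loci, as a description.

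A few loci differed strongly between the control strains. 21ur-2953 stood at 20.1 and 25.8 in the depletion controls, against 204 and 184 in the deletion controls, 8.45-fold higher. 21ur-3364 went from 50.0 and 56.4 to 404 and 290, and 21ur-7328 from 8.65 and 14.6 to 90.4 and 64.9. In the other direction, 21ur-2400 went from 156 and 194 to 10.2 and 16.8, 13.0-fold lower. 21ur-2389 went from 33.7 and 40.9 to 2.16 and 3.26, and 21ur-1328 from 21.3 and 25.8 to 1.18 and 1.25. The groups did not overlap at any of these 6 loci, which were picked for the size of the change and were not tested. In all, 217 loci were more than 2-fold higher and 339 more than 2-fold lower in the deletion controls, on means with 0.5 added. Loci had to reach 10 in the depletion controls, which favours falls over rises, so nothing is read from these counts. The median log2 change was -0.37 in the lowest class of depletion control level and 0.04 in the highest.

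**Figure D4:**
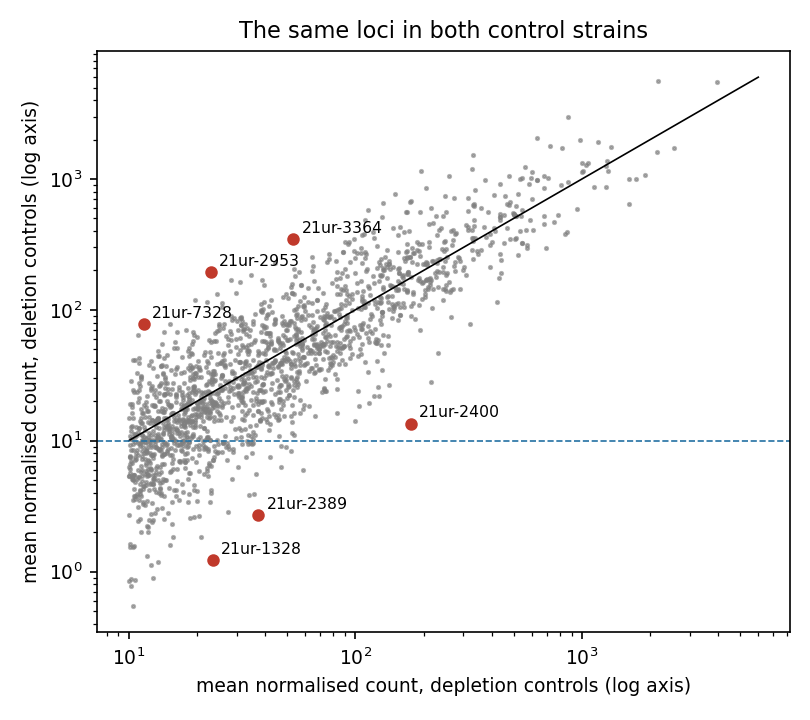
Mean normalised count of the 1833 loci in the depletion controls against that in the deletion controls (log axes), with the line of equality and a dashed line at 10. The 3 largest rises and 3 largest falls are named, from 21ur-2953 (8.45-fold higher) to 21ur-1328 (19.4-fold lower).

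The deletion experiment asks whether removing a single ATTF-6 binding site changes the piRNAs around it or elsewhere. The summed count of the 1833 loci was 212623 and 180834 in ΔPeak1, against 226813 and 197656 in the deletion controls, with overlapping libraries. The log2 ratio was -0.11 (exact two-sided permutation p 0.667). In ΔPeak2 the sum was 169535 and 196056, a log2 ratio of -0.22 (exact two-sided permutation p 0.333, the smallest possible), and its higher library lay just under the lower control. The share of the type I sum was 53.3% ± 1.18 in ΔPeak1 and 52.9% ± 0.0096 in ΔPeak2 (SD, n = 2), against 52.9% in the controls, with an exact permutation p of 1.00 for each.

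Locus by locus, 1832 of the 1833 loci were tested with edgeR among 31462 features. The remaining locus fell below the mean of 0.5 over the 6 libraries. In ΔPeak1 none of the 1832 passed an adjusted p of 0.05 in either direction, while 0.0858% of all features were called lower and 0.0636% higher. The smallest adjusted p of a locus was 0.131. At an unadjusted p under 0.05, 128 were lower and 8 higher, together 7.42% of the loci against 5.18% of all features. DESeq2 called 0 of the loci and 0.526% of the features to which it gave an adjusted p. The median log2 fold change was -0.14, against -0.03 over all features.

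The same fit was read for ΔPeak2. There, 7 of the 1832 loci (0.382%) fell and 0 rose, against 0.245% of all features called lower and 0.0636% called higher. The share of loci called lower was near that of all features, and nothing particular to these loci is read from the count. At an unadjusted p under 0.05, 394 loci were lower and 8 higher, together 21.9% of the loci against 9.46% of all features. DESeq2 called 11 lower and 1 higher, where it called 0.841% of the features to which it gave an adjusted p. The median log2 fold change was -0.27 and that over all features -0.14. TMM scaling moved these medians to -0.15 and -0.02 and left 1 of the 7 calls, 21ur-4852 (edgeR adjusted p 0.0399). Leaving out any of the 4 control and ΔPeak2 libraries leaves 1 library in a group, so a loss of calls in such a fit does not show that they rested on that library. The 7 loci were all in cluster II.

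Libraries were also compared without a model. In ΔPeak1, both libraries lay under both controls at 419 loci (22.9%) and above them at 38 (2.07%), where the shares over all features were 19.1% and 14.8%. In ΔPeak2 this was so at 904 loci (49.3%) below and 96 (5.24%) above, where the shares over all features were 32.6% and 11.5%. Among the other type I loci, the median log2 fold change in ΔPeak2 was -0.22 for the oogenic, -0.42 for the spermatogenic and -0.24 for the scarce loci, with 5 oogenic loci called lower.

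The 5 largest called changes ran over a wide range of levels. Each SE comes from the spread between libraries of log2 values, and is not the error behind the edgeR p beside it. 21ur-2883 (WBGene00046071, chrIV:16248785-16248805, minus strand, intronic) stood at 32.4 and 33.7 in the parent strain, at 10.2 and 14.2 in ΔPeak2 and at 11.9 and 16.4 in ΔPeak1. Its log2 fold change in ΔPeak2 was -1.43 ± 0.23 (SE, edgeR adjusted p 0.0469), and in ΔPeak1 it was -1.23 ± 0.23 without passing the test (edgeR adjusted p 0.131). It shares its 5′ end with 21ur-10074, so which of them changed cannot be told apart.

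21ur-1120 stood at 84.1 and 72.1 in the parent strain, at 50.2 and 64.9 in ΔPeak1 and at 37.9 and 31.0 in ΔPeak2, a log2 fold change of -1.18 ± 0.18 (SE, edgeR adjusted p 0.0309). 21ur-1762, one of the 5 most abundant loci, stood at 1039 and 1090 in the parent strain, at 621 and 833 in ΔPeak1 and at 480 and 585 in ΔPeak2, a log2 fold change of -0.998 ± 0.15 (SE, edgeR adjusted p 0.0303). In both loci the ΔPeak1 libraries lay between those of the controls and of ΔPeak2.

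21ur-4852 stood at 169 and 179 in the parent strain, at 137 and 138 in ΔPeak1 and at 87.0 and 94.6 in ΔPeak2, with a log2 fold change of -0.94 ± 0.08 (SE, edgeR adjusted p 0.0163). The called locus nearest to the deleted site was 21ur-391 at chrIV:14284599-14284619, far outside the 5 kb around that site, which starts at 14387943. 21ur-391 stood at 145 and 141, then at 119 and 122, then at 74.2 and 81.3 in the same order of groups, with a log2 fold change of -0.88 ± 0.07 (SE, edgeR adjusted p 0.0241). The same order of the 3 groups held at both. The other called loci were 21ur-3320 and 21ur-4791, with log2 fold changes of -0.85 and -0.84.

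The number of calls changed with the libraries in the fit. With only the 4 control and ΔPeak2 libraries compared, 105 loci were called lower and 3 higher. Whether the calls rest on a single library cannot be told, since leaving out a control or ΔPeak2 library leaves 1 in that group. Over the 13 alternatives the log2 fold change stayed below 0 at each of the 7 loci, and between -1.19 and -0.86 at 21ur-1762.

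The ΔPeak1 libraries were the least alike of the deletion experiment. The log2 ratios of replicate 2 over replicate 1 across the 1833 loci had a SD of 0.55 in ΔPeak1, 0.37 in the deletion controls and 0.33 in ΔPeak2. Without ΔPeak1 replicate 1, 23 loci passed in ΔPeak1, all lower. Without ΔPeak1 replicate 2, 47 passed, of which 16 were lower and 31 higher, and the log2 ratio of the sum was 0.0026.

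**Figure D5:**
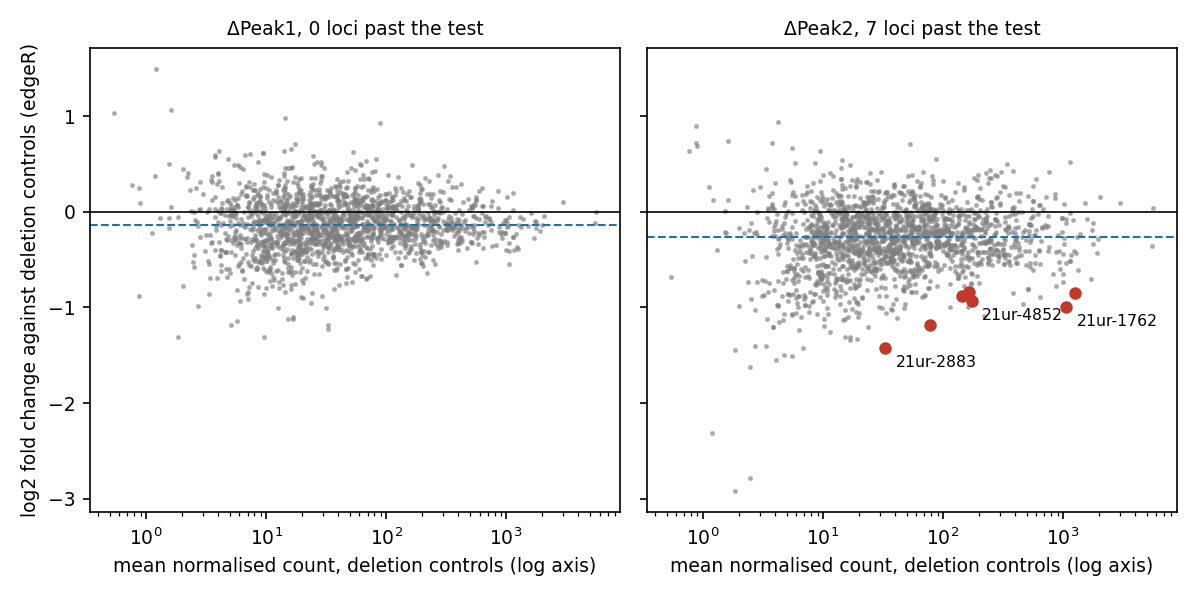
edgeR log2 fold change of each locus in ΔPeak1 (left) and ΔPeak2 (right) against its mean normalised count in the deletion controls (log axis). Red points mark the 7 loci past an adjusted p of 0.05, all in ΔPeak2, and dashed lines mark the medians of -0.14 and -0.27.

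No abundant unlabelled locus within 5 kb of the middle of either deletion passed the test. None of the type I loci lay in either deleted interval, of 183 nt and 594 nt, when the labels' positions were read as WBcel235, a build they do not name. Beside ΔPeak1 the nearest abundant unlabelled loci were 21ur-5826, which ends 1724 nt before the interval, and 21ur-166, which starts 1498 nt after it. 21ur-5826 stood at 181 and 151 in the parent strain against 186 and 114 in ΔPeak1. 21ur-166 stood at 92.4 and 79.7 against 98.6 and 74.1. The ΔPeak1 values spanned those of the controls at both. Over the 4 loci within 5 kb of the middle of the deletion, the log2 fold changes ran from -0.55 to 0.0040, and the smallest adjusted p was 0.945 (edgeR).

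Around ΔPeak2 the density was higher, with 10 such loci within 5 kb. 21ur-1593, the nearest, starts 97 nt after the interval and stood at 15.3 and 18.0 in the parent strain and at 25.3 and 21.4 in ΔPeak2. 21ur-6431 ends 477 nt before it and stood at 10.02 and 8.77 against 10.98 and 12.6. At both, the ΔPeak2 libraries were above the controls without overlap, by log2 fold changes of 0.49 ± 0.17 and 0.33 ± 0.13 (SE) that did not pass the test (edgeR adjusted p 0.696 and 0.783).

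The neighbouring 21ur-4732 and 21ur-5444, which start 1 nt apart, stood at 277 and 229 and at 267 and 221 in the parent strain, against 284 and 361 and 273 and 349 with the site removed. 21ur-5725 stood at 771 and 661 against 701 and 892, and the very abundant 21ur-2446 at 5612 and 5542 against 5254 and 6174. The groups overlapped at 21ur-5725 and 21ur-2446 and not at the pair that starts 1 nt apart. Over the 10 loci, 8 had a log2 fold change above 0 and 2 below. Below 0 were 21ur-2063, at 582 and 595 in the parent strain against 456 and 536, and 21ur-140, at 18.3 and 16.5 against 15.5 and 12.9. At both, the ΔPeak2 libraries were under the controls without overlap. The 10 log2 fold changes ran from -0.30 to 0.49 with a median of 0.19, where the median of all 1832 loci was -0.27. None of the 10 passed the test, with a smallest adjusted p of 0.489 (edgeR). At an unadjusted p under 0.05 (edgeR) were 2 loci, where 9.46% of all features were. These were 21ur-4732 and 21ur-5444, which can share reads, so they may be 1 signal that is counted as 2 here and in the median. 21ur-6431 and 21ur-5725 also share a 5′ end with another type I locus. The difference between these 10 and the other loci was not tested.

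The 4 piRNAs with printed sequences did not pass the test in either deletion strain. In ΔPeak2, 21ur-4606 stood at 97.5 and 100.1 against 94.1 and 96.9 in the controls, 21ur-1496 at 136 and 152 against 150 and 190, 21ur-3442 at 1233 and 1626 against 2224 and 1619, and 21ur-5665 at 254 and 355 against 418 and 423. 21ur-4606 was higher without overlap (log2 fold change 0.05), and 21ur-5665, lower without overlap, had a log2 fold change of -0.46 ± 0.24 (SE, edgeR adjusted p 0.359).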

How the data were processed

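Small RNAs of 12 whole-animal libraries were analysed from the deposited tables. Per the paper's methods, the authors trimmed reads with TrimGalore, aligned them to WormBase release WS279 with Bowtie without mismatches, and gave piRNA loci uniquely mapped sense reads of 15 to 40 nt that begin with T. The authors deposited, for each feature, an estimated count, which can be a fraction, and a normalised signal, which is that count divided by the mapped reads of the library and multiplied by a fixed factor. This denominator, recovered from both columns, ran from 3804460 to 7857706. The counts of a library sum to 1.67 to 4.06 times it, so which reads it holds was not settled. Summed counts ran from 6352629 to 31931330, and 3 counts equal a normalised count of 0.382 to 0.789. Intervals and floors cover counting error only.

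Loci were selected by feature, biotype, class and mean normalised count, and named as in the files. Positions came from the Ensembl annotation of WBcel235 (release 115) by gene identifier, which matched all 13458 type I loci, 10 of them under another name. No genome sequence was used here, so promoter motifs were not searched. The deletion libraries were fitted together by the quasi-likelihood test of edgeR 4.0.16 under R 4.3.3 on counts rounded to whole numbers, with the denominator as library size, over features at a mean normalised count of 0.5 or more, with Benjamini-Hochberg adjustment over all of these and a threshold of 0.05. The SE comes from the spread between libraries of log2 values with 0.5 added. The fit was tested on simulated data. Sums were compared by an exact permutation test over libraries. The depletion contrast was not tested, since the rule used its controls. Those controls are also a side of the comparison of control strains, so its p is not read as a result. Alternatives used DESeq2 1.42.0, TMM factors, library size from miRNA reads, other filters, a replicate block and left-out libraries. Summaries used Python 3.11.15, pandas 2.3.3 and statsmodels 0.14.6.

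The named loci are the 5 most abundant, the 3 on each side of the threshold, the 5 with the largest remaining share and the 5 most abundant without reads after depletion, the 5 largest called changes, those nearest to the deletions, those assayed by the study, the 5 with most csRNA, the highest of each other chromosome, and the 3 largest rises and falls between control strains. The loci at 5 kb from a deletion, those outside the clusters and the last called loci were named after their values were seen. The loci and lists were chosen with earlier results of these data known.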

Additional observations from a re-analysis of the deposited data

How the results depend on the processing

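The log2 ratio of the summed count of the abundant unlabelled loci in ΔPeak2 kept its direction under the 8 alternatives run, from -0.40 to -0.11, or -0.32 to -0.11 when a library was left out. The share of these loci in the type I sum was higher in the deletion controls than in the depletion controls under all 6 alternatives run, by 2.25 to 2.67 percentage points (2.40 to 2.65 with a library left out). In ΔPeak1 the log2 ratio ran from -0.23 to 0.0026 with a library left out, and was above 0 only without ΔPeak1 replicate 2. The depletion ratio of -5.13 became -5.34 per miRNA reads, -5.25 to -5.00 with a library left out, and -4.55 or -4.08 as the median over loci with a pseudocount of 0.5 or 1. The csRNA ratio of -7.81 became -7.32 per summed counts, -8.57 per miRNA reads, -2.40 from the PIR-1 libraries and -7.74 without loci that may share reads, an alternative chosen after seeing the data. At a mean of 20 or more, 87.7% rather than 85.2% of the loci were in cluster II.

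In ΔPeak1 the count of called loci was 0, became 13 without a filter on low values, and ran from 0 to 47 with a library left out. In ΔPeak2 the 7 calls became 1 with TMM factors, 12 with DESeq2, 78 with library size from miRNA reads, 149 without the filter and 108 with only the 4 libraries compared, and ran from 0 to 105 with a library left out. The cause was not tested. With the replicate number as a block, 0 and 1 loci were called in ΔPeak1 and ΔPeak2. The replicate numbers do not pair these libraries, since deviations of same-numbered libraries correlated at -0.05, -0.04 and -0.0032 over 31462 features. The planned searches for the promoter motif with 1 mismatch and in a narrower window were not run, as no genome sequence was used. With 2 libraries in each group, a permutation test cannot pass 0.05.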
